A study of Mus musculus with 7 samples.

Results

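The mitochondrial ribosomal protein genes were taken as every gene of the count table whose symbol consists of Mrpl or Mrps, a number and at most 1 further letter, and 77 of 21878 genes met that rule. Of these, 48 had an Mrpl symbol (large subunit) and 29 an Mrps symbol (small subunit). All 77 had enough counts to be tested, so none is missing from the values below. The RNA came from tumours of B16F10, a pigmented mouse melanoma line, grown in female C57BL/6J mice that were randomized once the tumours could be felt. The control group, called NC in the labels, gave 3 libraries (NC_5, NC_6 and NC_10), and the labels do not say whether these mice received a vehicle. The other group gave 4 libraries (MBZ_9, MBZ_11, MBZ_13 and MBZ_15) from mice dosed with Zelnorm, the trade name of tegaserod, at 1.25 mg/kg by mouth every 2 days. The meaning of the letters MBZ is not given in the sources used here, and no measured gene checks which drug was given. Nothing in the labels says that each library is a separate mouse, so the p-values measure the spread between these 7 libraries, which may in part be technical.

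Mitochondria keep a ribosome of their own, the mitoribosome, which makes the few subunits of the respiratory chain that mitochondrial DNA encodes. Its ribosomal RNAs come from mitochondrial DNA, whereas its proteins are encoded in the nucleus, made by cytosolic ribosomes and imported. Part of the proteins descend from bacterial ribosomal proteins and the others are found only in mitochondria. The small subunit binds and decodes the messenger RNA, and the large subunit forms the peptide bond and is tethered to the inner membrane where the products are inserted. In tumour cells, including melanoma cells, mitochondrial translation is studied because it sets the supply of respiratory chain complexes. Mitochondrially encoded genes were not analysed here.

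The symbols do not match the structure of the mitoribosome at every point. Mrps18a and Mrps30 carry small-subunit symbols but sit in the large subunit in structures of the mammalian mitoribosome, and Mrps36 is now known as a component of the oxoglutarate dehydrogenase complex. Grouped by structure, 50 members belonged to the large subunit, 26 to the small subunit and Mrps36 to neither. The members lay on 17 chromosomes, with 10 on chromosome 11, 8 on chromosome 17 and 7 on chromosome 6. In the GENCODE M21 annotation of GRCm38, overlaps were taken between the principal transcript of each gene, or all exons where a gene had none. By this measure, 16 members shared exon bases with a gene on the opposite strand and 5 with a gene on the same strand. Where the overlap is long, the counts of the member are uncertain. Neither the annotation nor the strand setting of the counting is given in the sources used here. A strand setting cannot separate genes on the same strand, where Mrpl53 shared 100% of its transcript with Gm42688. Also on the same strand, Mrpl33 shared 37.0% with Gm43809, Mrps6 36.1% with Gm49711 and Mrps18c 27.3% with Gm43511. On the opposite strand, the longest shares were 59.1% for Mrps18b with the antisense gene Gm16279, 58.2% for Mrps25 with Nr2c2 and 53.3% for Mrpl24 with Rrnad1. Mrps24, Mrpl20 and Mrpl42, which are described most closely below, shared none by this measure. Exons of the other transcripts of a gene were not compared. Pseudogenes were searched by symbol only. Those named after Mrpl23, Mrpl48 and Mrps36 could also take or lend reads of these genes, and pseudogenes under other names were not searched.

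Promoter sequences are shown for the 3 members per direction with the smallest p-values in the comparison of the groups, and for Mrpl22, chosen after its sequence was seen because it carried matches of both the NRF1 and the ETS core. The sequences come from RefSeq on GRCm38.p6 and cover the bases up to 250 before the transcript start used by the promoter table, on the strand of the gene, leaving out any stretch that GENCODE M21 annotates as exon. Capitals mark matches on either strand of the NRF1 core GCGCATGCG, the ETS core CCGGAAG, the YY1 core AAGATGGCG and the TATA box TATAAA. NRF1, the ETS factor GABP and YY1 are known regulators of nuclear genes for mitochondrial proteins. The Mrps24 sequence lies at chr11:5707702-5707951 on the minus strand, Mrpl20 at chr4:155802628-155802877 on the plus strand, Mrpl42 at chr10:95501950-95502199 on the minus strand, Mrpl24 at chr3:87919294-87919505 on the plus strand, Mrps22 at chr9:98601680-98601929 on the minus strand, Mrps33 at chr6:39810989-39811186 on the minus strand and Mrpl22 at chr11:58171414-58171660 on the plus strand. For Mrpl24 and Mrpl22 that start lies inside the gene, whose annotated span begins further upstream, at position 87918131 of chromosome 3 and 58170043 of chromosome 11.
Mrps24: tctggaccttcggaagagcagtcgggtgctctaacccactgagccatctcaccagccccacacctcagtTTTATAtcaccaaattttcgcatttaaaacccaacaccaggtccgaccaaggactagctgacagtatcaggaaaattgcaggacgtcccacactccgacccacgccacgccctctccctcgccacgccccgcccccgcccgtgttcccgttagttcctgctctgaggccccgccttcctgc
Mrpl20: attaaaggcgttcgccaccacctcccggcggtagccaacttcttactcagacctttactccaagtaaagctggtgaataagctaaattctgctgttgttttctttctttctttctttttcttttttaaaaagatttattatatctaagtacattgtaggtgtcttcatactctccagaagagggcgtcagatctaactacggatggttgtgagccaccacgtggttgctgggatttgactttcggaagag
Mrpl42: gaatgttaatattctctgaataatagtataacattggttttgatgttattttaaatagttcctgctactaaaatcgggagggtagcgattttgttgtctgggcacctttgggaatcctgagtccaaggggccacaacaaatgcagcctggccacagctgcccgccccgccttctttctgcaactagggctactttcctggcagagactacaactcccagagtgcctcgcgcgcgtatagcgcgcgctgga
Mrpl24: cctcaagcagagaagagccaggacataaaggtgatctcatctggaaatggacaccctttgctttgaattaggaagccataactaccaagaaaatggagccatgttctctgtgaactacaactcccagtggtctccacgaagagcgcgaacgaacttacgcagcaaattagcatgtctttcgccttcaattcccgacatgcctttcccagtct
Mrps22: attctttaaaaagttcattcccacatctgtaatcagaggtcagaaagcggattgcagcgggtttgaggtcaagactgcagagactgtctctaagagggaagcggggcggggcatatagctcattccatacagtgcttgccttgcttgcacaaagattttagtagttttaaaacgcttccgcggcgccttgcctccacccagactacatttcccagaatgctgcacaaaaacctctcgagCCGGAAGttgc
Mrps33: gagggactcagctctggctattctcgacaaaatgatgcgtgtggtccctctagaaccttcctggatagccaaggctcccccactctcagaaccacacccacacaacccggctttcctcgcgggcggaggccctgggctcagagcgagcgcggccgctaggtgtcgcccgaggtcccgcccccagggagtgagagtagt
Mrpl22: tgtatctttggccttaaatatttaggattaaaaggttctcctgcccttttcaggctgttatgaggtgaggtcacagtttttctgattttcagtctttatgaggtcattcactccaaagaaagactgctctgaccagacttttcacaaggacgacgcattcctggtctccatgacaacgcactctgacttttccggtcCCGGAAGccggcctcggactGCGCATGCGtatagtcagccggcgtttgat

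Mrpl22 held an ETS core beginning 53 bases and an NRF1 core beginning 33 bases before this transcript start, and Mrps22 held an ETS core beginning 11 bases before it. The TATAAA letters of Mrps24 began 181 bases before the start, on the opposite strand, and the other 4 printed sequences held no match. Across the family, 68 of 77 members were in the promoter table, with 74 windows of 300 bases (250 before and 50 after the start). The bases not printed matter here: in their whole windows Mrps24 and Mrpl42 also held a YY1 core and Mrps33 an ETS core. The ETS core was present in 25 of these windows (33.8%) against 8.86% of the 32851 windows of all genes, the NRF1 core in 7 (9.46% against 1.75%), the YY1 core in 8 (10.8% against 1.40%) and the TATA box in 5 (6.76% against 13.6%). The last 3 letters of the ETS core are the first 3 of the YY1 core, but no window held such an overlap. The windows of the members were rich in CpG, with a median of 21.5 CpG per window against 7 over all windows and a median GC content of 58.5% against 52.7%. The ETS, NRF1 and YY1 cores each contain CpG themselves, and their shares were not compared with those of windows of equal CpG content. Windows of the cytosolic ribosomal protein genes held the ETS core in 35.6% and the NRF1 core in 4.11%, and those of nuclear respiratory chain genes in 23.9% and 11.9%. The YY1 core was in 6.85% of the cytosolic and 10.4% of the respiratory chain windows. Their median CpG was 21 and 19 per window and their median GC content 57.7% and 58.3%, close to the values of the members. These shares describe letters in a window and not binding. The 35 members with a match of the NRF1, ETS or YY1 core had a median log2 fold change (Zelnorm against NC) of −0.04, and the 33 members of the table without one had −0.05.

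The 77 genes were moderately abundant in every tumour. Levels are given in CPM, counts scaled to library size. The mean over the 7 libraries ran from 12.6 CPM for Mrpl43 to 297 CPM for Mrpl12, with a median of 48.7 CPM, and the lowest count of any member in any library was 184, far above the detection floor of 3 counts. Together they held between 0.430% (MBZ_15) and 0.465% (NC_5) of all counts. Per kilobase of coding sequence, the highest level was that of Mrpl12 (493 CPM per kb), the stalk protein bL12 that recruits translation factors and is also reported to bind the mitochondrial RNA polymerase. Mrpl51 followed at 302 CPM per kb and Mrpl33 at 222 CPM per kb, whereas Mrpl1, a protein of the L1 stalk, was lowest at 14.5 CPM per kb. The members thus differed widely in level per coding length. Reads can come from the whole transcript, so this measure is raised for members with many bases outside the coding sequence. The Mrpl51 transcript, for example, has 3427 bases, of which 384 are coding. The order of members by this measure is therefore not an order of transcript number. The level of a member varied little between libraries: the median coefficient of variation was 7.01%, against 8.98% for all tested genes. All tested genes include genes with low counts, which raise this coefficient, and the comparison was not matched for level.

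Zelnorm was compared with NC in a single fit over all 12997 tested genes with edgeR's quasi-likelihood test. In such bulk tissue, fewer cells of a type and less RNA per cell cannot be told apart. No mitochondrial ribosomal protein gene passed an adjusted p of 0.05 in either direction, where the same threshold called 4 genes higher (0.0308%) and 0 lower (0%) over all genes. The smallest adjusted p of a member was 0.208, for Mrps24. Without adjustment, 2 members had p under 0.05, both lower in Zelnorm (2.60%), and 0 were higher, against 3.38% lower and 6.94% higher over all genes. This share depended on single libraries: without NC_6, 8 members (10.4%) were lower at unadjusted p under 0.05 against 4.45% of all genes, and without MBZ_11, 7 members (9.09%) were against 2.91%. Every Zelnorm library lay below every NC library for 4 members (5.19%), Mrps24, Mrpl20, Mrps23 and Mrpl36, a share close to the 4.27% of all genes. For no member did the Zelnorm libraries all exceed the NC libraries, against 5.33% of all genes. DESeq2, run as an alternative, called 171 genes higher (1.01%) and 35 lower (0.207%), and among them 1 member, Mrps24 (log2 fold change −0.22, adjusted p = 0.0481). On the 12997 genes tested by edgeR, DESeq2 called 1.39% higher and 0.269% lower, again with Mrps24 as the only member (adjusted p = 0.0473).

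The fitted changes were small and lay mostly below 0. Of the 77 members, 59 (76.6%) had a log2 fold change below 0, against 49.8% of all tested genes, and 53 did when library size was left unscaled. The median over the members was −0.05, a change of −3.61%, with the middle 50% between −0.10 and 0.00, and the median of all tested genes was 0.00. The lowest value was −0.21 and the highest 0.09. The standard errors ran from 0.05 to 0.11, so single members were measured closely: the 95% interval lay within 0.5 of 0 for all 77 and within 0.25 of 0 for 46. Over the family the intervals reached from −0.46 (Mrpl43) to 0.30 (Mrps18c), that is from −27.2% to 23.3%. Changes larger than those bounds lay outside the interval of every member, while the interval included 0 for every member except Mrps24 and Mrpl20. The direction of the median was the same without each library in turn, but its size ranged from −0.03 without NC_5, when 48 members were below 0, to −0.08 without NC_6.

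**Figure D1:**
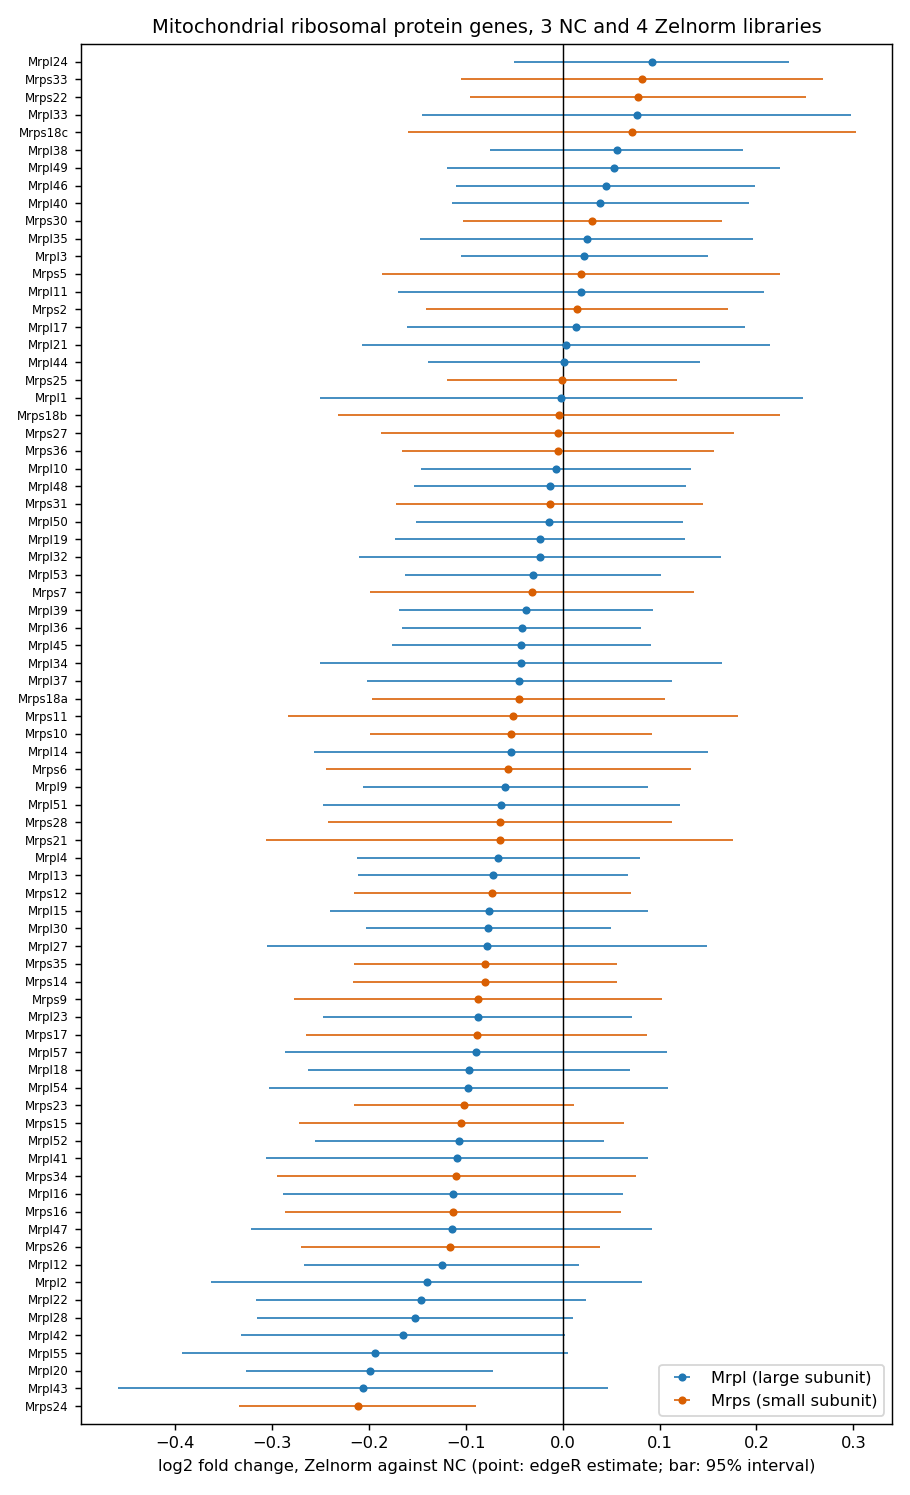
Fitted log2 fold change of each of the 77 mitochondrial ribosomal protein genes, Zelnorm (4 libraries) against NC (3 libraries), with the 95% interval as a bar, Mrpl in blue and Mrps in orange. Most points lie left of 0 and most bars cross it; the bars of Mrps24 and Mrpl20 do not.

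Mrps24, a small-subunit protein of bacterial descent (uS3) near the entry of the messenger RNA channel, had the smallest p. It is encoded at chr11:5703982-5707701. Its level was 105.7, 96.7 and 99.7 CPM in NC_5, NC_6 and NC_10, and 85.7, 90.1, 86.8 and 85.4 CPM in MBZ_9, MBZ_11, MBZ_13 and MBZ_15. The groups did not overlap, and the gap between the lowest NC and the highest Zelnorm library exceeded the SD of either group (100.7 ± 4.58 CPM, n = 3, and 87.0 ± 2.14 CPM, n = 4). The log2 fold change was −0.21 ± 0.06 (SE), with an edgeR p of 0.0031 before and 0.208 after adjustment over all genes. It therefore did not pass the threshold in edgeR, and it ranked 192 among all 12997 genes by p.

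Mrpl20, the bL20 protein bound to the large-subunit RNA, is encoded at chr4:155802878-155808831. It measured 76.1, 71.7 and 74.1 CPM in the NC libraries and 64.0, 68.04, 62.3 and 63.4 CPM in the Zelnorm libraries. These groups did not overlap either, and the log2 fold change was −0.20 ± 0.06 with an edgeR adjusted p of 0.256. In DESeq2 its adjusted p was 0.119.

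Mrpl42, a mitochondria-specific protein of the large subunit, measured 67.6, 69.6 and 77.3 CPM in NC and 60.9, 61.9, 71.0 and 61.4 CPM in Zelnorm. Here the groups overlapped, because MBZ_13 lay above NC_5 and NC_6. Its log2 fold change was −0.16 ± 0.08, with an edgeR adjusted p of 0.493. Mrps23, a mitochondria-specific protein of the small subunit, was tightly clustered in NC at 97.6, 98.3 and 97.3 CPM, and the Zelnorm libraries stood lower at 88.7, 90.0, 91.1 and 94.4 CPM. Although the groups did not overlap, the difference was small (−0.10 ± 0.05, edgeR adjusted p = 0.537). Mrpl36, named after its values were seen because its groups also did not overlap, differed by less still: 44.1, 45.1 and 44.8 CPM against 44.07, 42.3, 43.7 and 43.4 CPM (−0.04 ± 0.06).

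Mrpl12, the most abundant member, measured 331, 293 and 311 CPM in NC and 292, 308, 270.2 and 274 CPM in Zelnorm. The group means of 312 ± 18.9 (n = 3) and 286 ± 17.6 CPM (n = 4) differed by little more than an SD, MBZ_11 lay above NC_6, and the log2 fold change was −0.12 ± 0.06 (edgeR adjusted p = 0.546). Mrpl28, bL28 of the large subunit and in humans also described as a melanoma antigen recognized by T cells, had 122, 102 and 112 CPM in NC and 102, 109, 95.4 and 97.7 CPM in Zelnorm, again with overlapping groups (−0.15 ± 0.07). For Mrpl55, a large-subunit protein, the higher NC mean rested on NC_5 with 36.0 CPM and NC_10 with 32.1 CPM, since NC_6 at 28.2 CPM lay within the Zelnorm range of 26.5 to 29.4 CPM (−0.19 ± 0.09). Mrpl22, whose protein lines the exit tunnel for the new chain, had 29.3 to 30.3 CPM in NC and 24.8 to 29.8 CPM in Zelnorm (−0.15 ± 0.08). The edgeR adjusted p of these 3 genes was at least 0.498.

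The members with the smallest p among those fitted above 0 were further from the threshold. Mrpl24, whose protein sits at the tunnel exit, measured 47.1, 48.8 and 45.2 CPM in NC and 47.2, 50.5, 49.6 and 53.3 CPM in Zelnorm, with overlapping groups (0.09 ± 0.06, edgeR adjusted p = 0.676). Mrps22 and Mrps33, mitochondria-specific proteins of the small subunit, had group means of 29.2 against 30.8 CPM and 33.5 against 35.4 CPM, and log2 fold changes of 0.08 for both. Mrpl33 (0.08), Mrps18c (0.07), Mrpl38 (0.06), Mrpl49 (0.05) and Mrpl46 (0.04) completed the 8 taken in that direction. For Mrpl33 the value rested on MBZ_15 at 51.9 CPM, where the other Zelnorm libraries ran from 37.9 to 45.2 CPM and the NC libraries from 40.5 to 45.1 CPM; without MBZ_15 its log2 fold change was −0.01. All 5 had an edgeR adjusted p of at least 0.810.

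**Figure D2:**
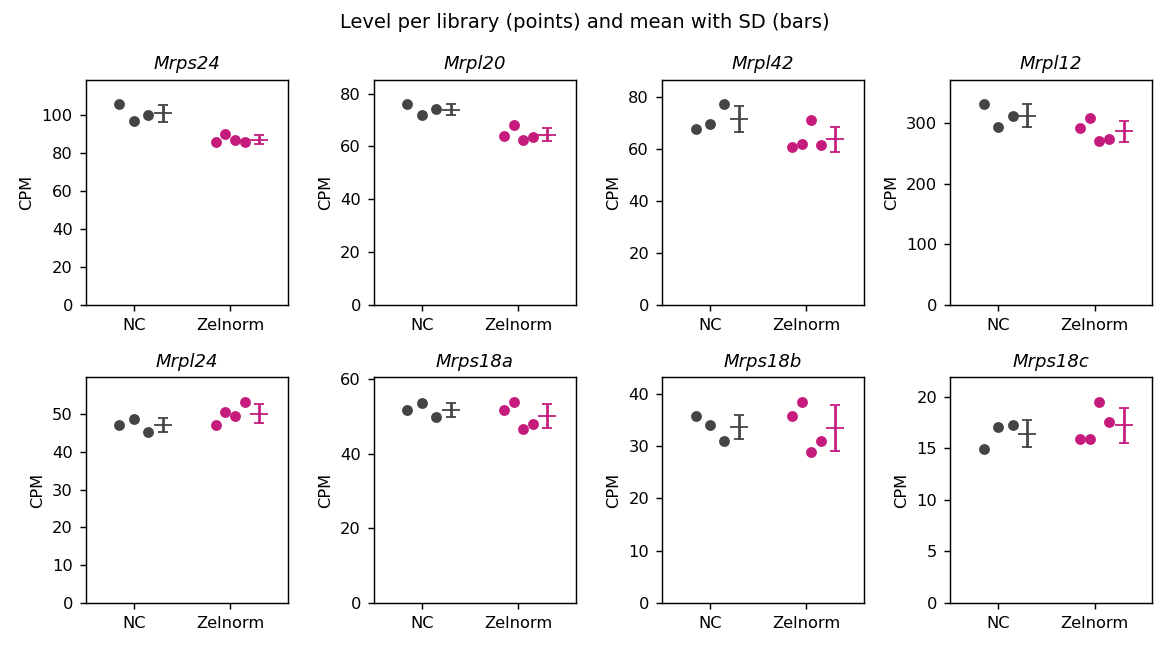
Level in CPM of 8 members in each library (points, NC grey and Zelnorm magenta), with the group mean and SD beside them. The NC and Zelnorm points do not overlap for Mrps24 and Mrpl20 and overlap for the other 6 genes.

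The least abundant members also gave no difference beyond their spread. Mrpl43 had the lowest mean level and the widest interval, with 14.8, 13.4 and 12.7 CPM in NC and 10.6, 13.5, 11.4 and 11.9 CPM in Zelnorm (−0.21 ± 0.11). MBZ_11 lay above NC_6 and NC_10, so these groups overlapped in spite of a fitted value as low as that of Mrps24. Mrpl1 averaged 14.6 CPM in both groups (0.00 ± 0.11), although NC_5 alone stood at 12.2 CPM where the other 6 libraries lay between 13.9 and 15.9 CPM. Mrpl32, a protein that must be cut by a mitochondrial protease before it assembles, averaged 16.2 and 15.9 CPM (−0.02 ± 0.08). At the other end, Mrpl51 averaged 119 and 114 CPM (−0.06 ± 0.08) and Mrpl13 115 and 110 CPM (−0.07 ± 0.06).

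The Mrps18 paralogs are related to bacterial S18, and none of them differed between the groups beyond its spread. Mrps18a, found in the large subunit, averaged 51.7 ± 1.91 CPM in NC and 50.1 ± 3.33 CPM in Zelnorm (−0.05 ± 0.07). Mrps18b averaged 33.6 ± 2.33 and 33.5 ± 4.40 CPM (0.00 ± 0.10), with its lowest and its highest library both in the Zelnorm group (28.8 CPM in MBZ_13 and 38.5 CPM in MBZ_11). Mrps18c, the paralog that takes the place of bacterial S18, was the least abundant at 16.4 ± 1.32 and 17.2 ± 1.71 CPM (0.07 ± 0.10). Mrps30, the other large-subunit protein with an Mrps symbol, had a log2 fold change of 0.03 ± 0.06, and Mrps36 had 0.00 ± 0.07.

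The large and small subunits had nearly equal medians, and the difference between them was not tested. The median log2 fold change was −0.05 for both the 48 Mrpl genes, of which 36 were below 0, and the 29 Mrps genes, of which 23 were. The difference of the medians, large minus small, was 0.0039 with members grouped by symbol and 0.015 grouped by structure, and it ranged from −0.03 to 0.02 over the fits that omitted a library. The mean log2 CPM of the Mrpl genes exceeded that of the Mrps genes by 0.18, 0.16 and 0.19 in NC_5, NC_6 and NC_10, and by 0.13, 0.17, 0.20 and 0.18 in MBZ_9, MBZ_11, MBZ_13 and MBZ_15. The lowest and the highest of these 7 differences were both in the Zelnorm group. By nomenclature, which names Mrps18a and Mrps18b as mitochondria-specific, the 46 members with a bacterial homolog had a median of −0.06 with 36 below 0, and the 30 others of the mitoribosome had −0.03 with 22 below 0. In edgeR no member of any of these groups passed the adjusted threshold. In DESeq2 Mrps24, a small-subunit member with a bacterial homolog, did.

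The mean log2 CPM of the 77 members was 5.70, 5.64 and 5.67 in NC_5, NC_6 and NC_10 and 5.60, 5.66, 5.63 and 5.60 in MBZ_9, MBZ_11, MBZ_13 and MBZ_15. The groups overlapped, since MBZ_11 was above NC_6, and the means were 5.67 ± 0.03 (n = 3) and 5.62 ± 0.03 (n = 4). NC_5 held the highest value of 26 members, more than any other library, while MBZ_9, MBZ_13 and MBZ_15 held the lowest value of 24, 17 and 15. MBZ_9 and MBZ_13 also held the highest value of 11 and 10 members, against 10 in NC_10 and 6 in NC_6. The members did not move as a tight block: over the 2926 pairs of members the correlation of log2 CPM across the 7 libraries had a median of 0.12, and 0.07 after the group means were removed. With 7 libraries that share their scaling, these correlations are a description only.

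**Figure D3:**
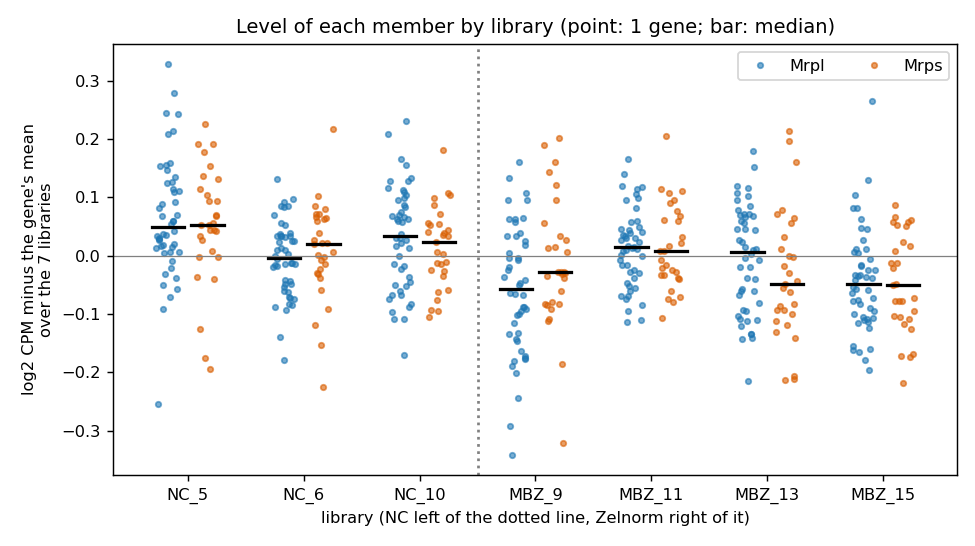
Level of each member in each library as log2 CPM minus the gene's mean over the 7 libraries (points, Mrpl blue and Mrps orange, with the median as a bar). By the mean over all members, NC_5 stands highest and MBZ_9 and MBZ_15 lowest. For the Mrps genes alone, MBZ_15 and MBZ_13 have the lowest means. The points of every library spread on both sides of 0.

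Mitoribosomal proteins with other symbols were examined beside the members. Of 6, none passed the threshold in edgeR, 5 had a log2 fold change below 0, and their median was −0.05. Dap3, the GTP-binding protein mS29 also known from apoptosis, had −0.04, Ptcd3 (an RNA-binding protein of the small subunit) −0.02, Aurkaip1 −0.06, Gadd45gip1 (CRIF1, near the tunnel exit) −0.08, Ict1 (a peptidyl-tRNA hydrolase built into the large subunit) −0.07 and Chchd1 0.08.

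The rest of the mitochondrial translation pathway was taken from lists of known genes. None of the 26 genes for mitoribosome assembly and rRNA modification, 14 translation factors, 17 mitochondrial aminoacyl-tRNA synthetases, 8 genes for mitochondrial DNA transcription and replication or 8 regulators of mitochondrial biogenesis passed the adjusted threshold in edgeR. Without adjustment, 1 assembly gene (3.85%), 2 translation factors (14.3%) and 1 synthetase (5.88%) were lower at p under 0.05, against 3.38% of all genes. In the other direction 1 synthetase was higher, where 6.94% of all genes were. Assembly genes had a median log2 fold change of 0.03 with 11 below 0, translation factors −0.03 with 9 below 0, synthetases −0.03 with 10 below 0, DNA transcription and replication genes −0.06 with 5 below 0 and biogenesis regulators −0.03 with 5 below 0. The assembly genes were thus the one list of these with a median above 0. Trub2, a pseudouridine synthase that acts on mitochondrial RNA, had the smallest p among them, with 64.5 ± 3.63 CPM in NC and 57.4 ± 1.10 CPM in Zelnorm (−0.17 ± 0.06, edgeR adjusted p = 0.362). Mtif2, the initiation factor that brings the initiator tRNA to the small subunit, had 36.7 ± 1.20 and 32.03 ± 3.02 CPM (−0.19 ± 0.08, edgeR adjusted p = 0.454). The mitochondrial leucyl-tRNA synthetase gene Lars2 stood out in the other direction with 190 ± 8.83 CPM in NC and 235 ± 10.2 CPM in Zelnorm (0.31 ± 0.06). The lowest Zelnorm library of Lars2 exceeded its highest NC library, but its edgeR adjusted p of 0.0946 missed the threshold.

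None of the 8 listed regulators of mitochondrial biogenesis passed the threshold in edgeR. The gene of YY1 was not in that list, and its value was not examined. Gabpa and Gabpb1, the subunits of the ETS factor GABP, had log2 fold changes of −0.07 ± 0.07 and −0.10 ± 0.08, and Esrra, a nuclear receptor of mitochondrial genes, −0.06 ± 0.07. Tfam, which packages mitochondrial DNA and comes from the list for its transcription and replication, had −0.07 ± 0.07. The coactivator gene Ppargc1b had 12.4 ± 1.08 CPM in NC and 14.2 ± 1.33 CPM in Zelnorm (0.20 ± 0.11). The edgeR adjusted p was at least 0.596 for all 5.

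Cytosolic ribosomal protein genes and nuclear respiratory chain genes, the families nearest in function, had lower medians in the same libraries. Of 78 cytosolic ribosomal protein genes 77 were below 0 with a median log2 fold change of −0.14, and of 74 respiratory chain genes 73 were below 0 with a median of −0.10. At unadjusted p under 0.05, 27 cytosolic (34.6%) and 10 respiratory chain genes (13.5%) were lower, against 2.60% of the mitochondrial ribosomal protein genes and 3.38% of all genes. No gene of either list passed the adjusted threshold: the smallest edgeR adjusted p was 0.118, for Rpl39 (169 ± 18.8 CPM in NC and 125 ± 10.02 CPM in Zelnorm), and 0.152 for Cox7c of the cytochrome c oxidase (151 ± 10.8 and 125 ± 5.64 CPM). The difference between the lists was not tested.

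**Figure D4:**
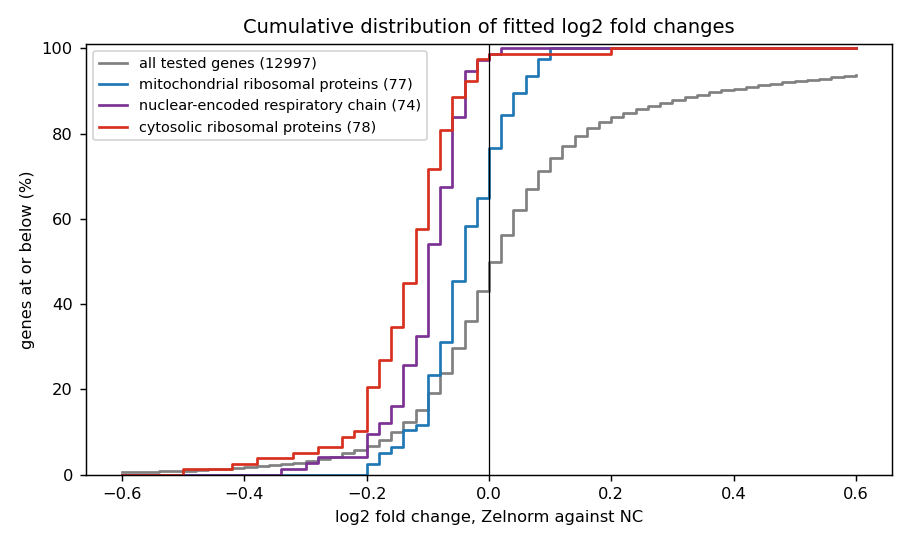
Percentage of genes with a fitted log2 fold change (Zelnorm against NC) at or below the value on the horizontal axis, for 77 mitochondrial ribosomal protein genes, 74 nuclear respiratory chain genes, 78 cytosolic ribosomal protein genes and all 12997 tested genes. The curve of the mitochondrial ribosomal protein genes crosses 0 at 76.6%, between that of all genes at 49.8% and those of the other families, which cross it near the top.

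Coding length was set beside these values. Members have short coding sequences, with a median of 576 bases against 1392 over all tested genes, and the other genes of up to 600 coding bases also had a median log2 fold change below 0 (−0.03, with 59.5% below 0), where the 41 members of that length had −0.06. Between 600 and 900 bases the other genes had 0.00 and the 21 members −0.05, and between 900 and 1200 bases 0.00 and the 11 members −0.01. The 4 longest members, between 1200 and 1500 bases, had 0.0071, where the other genes of that length had −0.0026. When a smooth trend of the log2 fold change on coding length was subtracted, an analysis chosen after seeing the data, the median of the members was −0.03 and 46 of 77 were below 0, with −0.10 for the cytosolic ribosomal and −0.06 for the respiratory chain genes. The mean log2 CPM of the 3333 other genes of up to 900 coding bases was not lower in Zelnorm. It ran from 4.46 to 4.54 in NC and from 4.52 to 4.59 in Zelnorm. This mean pools genes of up to 600 bases with those between 600 and 900 bases. The level per library was not taken for the shorter genes alone. The part of coding length in the result was not tested further.

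Marker genes of other cell types were also measured, and the summed levels of each list overlapped between the groups. The 14 pan-leukocyte markers were all fitted higher in Zelnorm, with a median log2 fold change of 0.69. Of these, 10 had an unadjusted edgeR p under 0.05, where 6.94% of all genes were higher at that threshold. Their summed level was 598 to 705 CPM in NC and 677 to 948 CPM in Zelnorm. The 11 skeletal muscle markers that could be tested were also fitted higher, with a median of 2.93 and 7 at unadjusted edgeR p under 0.05. Their summed level ran from 7.64 to 45.9 CPM in NC and from 8.55 to 391 CPM in Zelnorm, with the most in MBZ_15, MBZ_11 and NC_5. The 6 fibroblast markers had a median of 0.65, with 2 higher at unadjusted edgeR p under 0.05. Their summed levels were 661 to 1742 CPM in NC and 1186 to 2387 CPM in Zelnorm. No marker of these lists passed the adjusted threshold. Pigment cell markers, which check the melanoma label, summed to between 26078 and 30494 CPM in the 7 libraries, so the labelled cell type was present in each, and 14 proliferation genes had a median log2 fold change of −0.01. Without NC_5, MBZ_11 and MBZ_15 the median of the mitochondrial ribosomal protein genes was −0.05 with 54 below 0, and with the leukocyte level as a covariate it was −0.08, with 7 members (9.09%) lower at unadjusted p under 0.05 against 2.74% of all genes. Whether these cells contribute to the values of the members was not tested further.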

How the data were processed

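RNA from B16F10 tumours was sequenced in 7 libraries made with a kit that keeps the strand, per the labels' protocols. The authors deposited raw read counts per gene for the 7 libraries, with no normalization. The submitters' processing notes name Trimmomatic, HISAT2, Cufflinks, HTSeq, DESeq and the builds GRCh38 and GRCm38. For versions, annotation and strand setting, the entry is: not given in the sources used here. Reads shared with overlapping genes or pseudogenes can therefore move the counts of some members.

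Library totals ran from 16903598 to 19666598 counts, so that 3 counts, the floor used, correspond to between 0.152 and 0.178 CPM. The floor covers counting error only. Genes were kept by filterByExpr (12997 genes), scaled by TMM (factors 0.986 to 1.01) and compared with edgeR 4.0.16 (quasi-likelihood, R 4.3.3) with Benjamini-Hochberg adjustment over all tested genes at 0.05. The common coefficient of biological variation was 0.111. SEs and 95% intervals of log2 fold changes were derived from the F statistic. Mean log2 CPM used a prior count of 2. Coding lengths came from GENCODE M21, coordinates and promoters from RefSeq on GRCm38.p6, and both were joined by gene identifier. Columns were assigned to groups by their names, whose numbers match no replicate number of the sample titles.

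The members and all lists were chosen with earlier results of these data known. Genes were named by rule: the 8 members per direction with the smallest p, the 3 most and the 3 least abundant, the Mrps18 paralogs, Mrps30, Mrps36, mitoribosomal proteins with other symbols and up to 4 genes per list. The YY1 and TATA motifs were added after values were seen. Of the sequences the rule selects, stretches annotated as exon were left out, and the proteins of the Mrps18 paralogs are not shown. Alternatives were the RLE and upper quartile scalings, no scaling, no filter, a filter at a mean of 1 CPM, DESeq2 1.42.0, limma 3.58.1 (voom), the pan-leukocyte level as covariate, leaving out the 3 libraries with most muscle transcripts, grouping by structure and leaving out each library. DESeq2 on the genes tested by edgeR and a lowess trend on coding length (span 0.3) were added after seeing the data. In simulated counts for the comparison of Zelnorm with NC, over 12888 genes, 94.5% of 200 genes changed by 1 on the log2 scale were called, with 8 false calls. That change was larger than any fitted for a member (lowest −0.21, highest 0.09). How often changes as small as those of the members would be called was not simulated. Plots used matplotlib 3.10.9 (Python 3.11.15).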

Additional observations from a re-analysis of the deposited data

Results flagged for a closer look

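In MBZ_13, Mrpl42 stood at 70.96 CPM, apart from the other 3 Zelnorm libraries at 60.9, 61.9 and 61.4 CPM, and its distance to the nearest of them took up a larger part of the group's range than the 95% critical value of Dixon's test for 4 samples allows. It was 1 of 33 sets of Zelnorm values examined, and chance flags about 1 in 20 such sets. Groups of 3 were not examined.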

How the results depend on the processing

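Over the members as a family, edgeR called none under any scaling, filter or left-out library, and the median log2 fold change stayed below 0 in every alternative run. No paired analysis was possible because the columns of the count table carry no replicate numbers, so no fit with a replicate block was made. Leaving out each library in turn gave 0 to 161 genes called (161 without NC_10, 21 without MBZ_15 and 0 without NC_5), a median of the members from −0.083 (without NC_6) to −0.033 (without NC_5), 48 to 60 members below 0, 2 to 8 members at unadjusted p under 0.05 (8 or 10.4% without NC_6, against 4.45% of all genes lower, and 7 or 9.09% without MBZ_11, against 2.91%) and a large minus small difference from −0.027 to 0.018. Without the filter on low counts edgeR called 34 genes, and 4 members (5.19%, against 3.14% of all genes) were lower at unadjusted p under 0.05. DESeq2 called 206 genes, 1 of them a member, with 4 members lower at unadjusted p under 0.05 (5.19% against 2.81%), and on the genes tested by edgeR it called 216, 1 of them a member. The leukocyte covariate gave 7 members at unadjusted p under 0.05, all lower (9.09% against 2.74% of all genes). With that covariate, and without the 3 libraries with most muscle transcripts, edgeR called 0 genes. Some fitted values changed sign, among members and among mitoribosomal proteins with other symbols: Mrpl1 was 0.0045, Mrps18b 0.0029 and Mrps36 0.0021 without scaling, Mrpl1 0.0094 in voom, Mrpl33 −0.050, Mrps36 0.013 and Ict1 0.019 without the 3 muscle-rich libraries, and Mrpl46 −0.024, Mrpl1 0.010, Mrps36 0.042 and Ptcd3 0.072 with the leukocyte covariate. Over the left-out libraries the log2 fold change ran from −0.014 to 0.141 for Mrpl33, −0.015 to 0.102 for Mrpl49, −0.019 to 0.075 for Mrpl46, −0.126 to 0.0041 for Mrpl51, −0.116 to 0.057 for Mrpl1, −0.056 to 0.0037 for Mrpl32, −0.080 to 0.062 for Mrps18b, −0.0071 to 0.056 for Mrps30, −0.032 to 0.023 for Mrps36, −0.093 to 0.012 for Dap3 and −0.060 to 0.029 for Ptcd3. The cause of these changes was not tested. Every member had at least 184 counts in each library, well above the floor of 3.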
